A study of Mus musculus with 12 samples.

Results

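SOX2 regions that lay more than 1 kb and at most 50 kb outside protein-coding genes were described in mouse embryonic stem cells. They were the regions of the list from asynchronous cells whose midpoint fell in no protein-coding gene span (RefSeq annotation of GRCm38.p6, the assembly behind the mm10 coordinates) and within those limits of the nearest one. The rule found 2809 of 10351 distinct regions (27.1%, exact 95% interval 26.3 to 28.0%, Clopper-Pearson). The other classes were gene ends, with the midpoint within 1 kb of either end of a gene (773 regions), gene interiors (4580) and space further than 50 kb from any gene (2189). Only protein-coding genes set the limits, so a region could still lie in another kind of gene. The midpoints of 507 regions (18.05%) did so, 451 of them in a long non-coding RNA (lncRNA) gene and 35 in a pseudogene.

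The study mapped SOX2 by chromatin immunoprecipitation and sequencing (ChIP-seq) in E14 cells, an established mouse embryonic stem cell line, with and without arrest in mitosis. All cells grew in 10% serum with leukemia inhibitory factor (LIF), the GSK3 inhibitor CHIR99021 at 3 µM and the MEK inhibitor PD184352 at 0.8 µM. Asynchronous cells were left to cycle, whereas mitotic cells were held overnight in nocodazole, which depolymerises microtubules, then fixed and sorted for histone H3 phosphorylated at serine 10, a mark of condensed chromosomes. Each condition had 3 ChIP libraries, made with the Y-17 antibody, and 3 input libraries of total chromatin, and 1 list of regions per condition came from the pooled replicates. The lists held positions without heights, counts or replicate values, so the sequencing depth is unknown and every interval given here covers counting error only.

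SOX2 is a transcription factor with an HMG box, a domain that binds the minor groove of DNA and bends it. In embryonic stem cells it often binds beside OCT4 (the product of Pou5f1) on joined elements, in which a SOX core is followed by an octamer. Many such elements lie in enhancers outside the transcribed part of a gene, from which they can act over a distance, and the nearest gene is therefore not necessarily the regulated one.

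Sequences were read where a region covered the RefSeq start window of a gene, which runs from 250 bases before to 50 bases after its start site. Such windows were overlapped by 39 of the regions, at 39 genes, all 39 of them lncRNA genes, and in 25 cases the start site itself was inside the region. These 4 are shown as examples that hold a SOX core (CATTGT, or ACAATG on the other strand) or, at Gm34201, the joined element. The joined element was searched as ATTGT, any base, then the octamer ATGCAAAT, so each match to it is also an octamer match. Capitals mark the matches, and both strands were searched. All are from GRCm38.p6, written in the direction of the gene's transcription, Gm34201 from the minus strand (chr15:84622114-84622413) and the others from the plus strand (Gm36555 chr15:25332095-25332394, Gm40685 chr10:69311980-69312116, Gm52714 chr4:156064024-156064323).
Gm34201: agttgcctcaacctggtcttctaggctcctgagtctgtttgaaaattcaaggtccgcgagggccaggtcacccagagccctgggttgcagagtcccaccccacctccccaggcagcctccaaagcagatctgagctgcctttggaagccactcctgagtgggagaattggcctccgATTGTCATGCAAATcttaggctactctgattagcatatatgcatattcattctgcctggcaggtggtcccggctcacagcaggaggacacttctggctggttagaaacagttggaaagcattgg
Gm36555: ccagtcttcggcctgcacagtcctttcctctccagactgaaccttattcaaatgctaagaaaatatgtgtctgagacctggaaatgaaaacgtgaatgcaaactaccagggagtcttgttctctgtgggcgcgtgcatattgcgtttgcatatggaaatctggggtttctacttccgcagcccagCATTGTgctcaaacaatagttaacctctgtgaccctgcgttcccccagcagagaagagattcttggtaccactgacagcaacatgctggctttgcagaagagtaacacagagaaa
Gm40685: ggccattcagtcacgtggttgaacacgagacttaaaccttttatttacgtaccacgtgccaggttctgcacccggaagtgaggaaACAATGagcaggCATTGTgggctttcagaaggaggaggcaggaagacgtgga
Gm52714: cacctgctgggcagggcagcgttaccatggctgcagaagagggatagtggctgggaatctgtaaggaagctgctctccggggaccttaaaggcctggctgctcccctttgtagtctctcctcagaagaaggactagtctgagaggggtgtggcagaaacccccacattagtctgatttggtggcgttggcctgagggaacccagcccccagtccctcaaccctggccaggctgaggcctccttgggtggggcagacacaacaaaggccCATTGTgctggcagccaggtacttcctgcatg

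The Gm34201 region was 637 bp wide and lay 41.0 kb from Prr5, which encodes a subunit of the mTORC2 kinase complex. It covered the whole 300-base window. Among 32851 RefSeq start windows of the same length, 6 held the joined element (0.0183%). Of these 6, 3 were overlapped by an asynchronous SOX2 region (50%), at Nrarp, Pipox and Gm34201, against 512 of all 32851 windows (1.56%). The other 3 were at Gm38966, 2.58 kb from a region, and at Exoc1, which has 2 overlapping windows 33.7 kb from one. The joined element was searched with a SOX core that lacks its first base. That shortened core and the spacing were set after these sequences had been seen. The Gm34201 sequence, 1 of the 3 overlapped, was among those seen, so these counts are a description and no support for the element. The SOX core was present in 8 of the 22 windows that a region 1 to 50 kb outside genes covered over at least 150 bases (36.4%). It was present in 12.6% of all windows and 15.4% of the 11588 lncRNA windows. The octamer was found in 1 of the 22 (4.55%), the Gm34201 window, against 1.74% of all windows. These counts cover whole windows, and within the stretch that the region covered 7 of the 22 held a SOX core. Chromosome 18 was left out of these 22 windows too, but not of the windows set beside them. In the Gm40685 window the 2 SOX cores lay on opposite strands, within a region of 240 bp, 20.3 kb from Rhobtb1. The Gm36555 region (482 bp) lay 31.0 kb from Basp1, which encodes a membrane-bound protein of nerve endings, and the Gm52714 region (466 bp) lay 13.4 kb from Ttll10. A missing match says only that those letters are not in that window.

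The density of regions was lower at each step away from genes. Between 1 and 5 kb there were 637 regions, or 5.58 per Mb of genome at that distance. The value was 4.94 per Mb at 5 to 10 kb (523 regions), 4.53 per Mb at 10 to 20 kb (671) and 3.93 per Mb at 20 to 50 kb (978). Over all distances from 1 to 50 kb it was 4.55 per Mb, close to the 4.63 per Mb inside genes. Gene ends had 9.76 per Mb and the space further than 50 kb 2.17 per Mb. The median distance to the nearest gene was 13.4 kb (interquartile range 5.52 to 26.1 kb). The region nearest to the lower limit was 1.003 kb from Cep97 (246 bp wide) and the first one within it 0.998 kb from Nlrp12 (278 bp). At the upper limit the last region inside lay 49.963 kb from D16Ertd472e (307 bp) and the first one beyond 50.03 kb from Cbln4 (290 bp). Assembly gaps and the ability to map reads were not taken out of these densities.

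**Figure D1:**
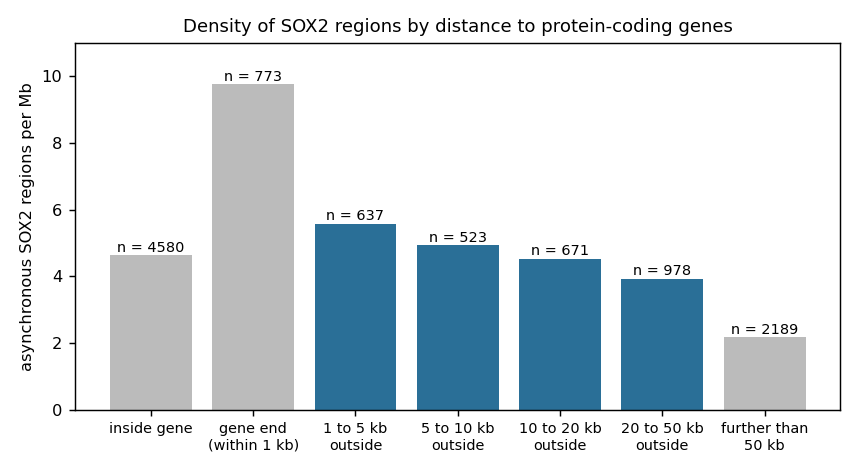
Asynchronous SOX2 regions per Mb of genome (vertical axis) inside genes, at gene ends, in 4 distance bins from 1 to 50 kb outside protein-coding genes, and further out. The bins step down from 5.58 to 3.93 per Mb, between 9.76 at gene ends and 2.17 beyond 50 kb.

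The regions were wider than those at gene ends and slightly wider than those inside genes. Their median width was 295 bp (interquartile range 231 to 388 bp), against 274 bp at gene ends, 285 bp inside genes and 296 bp further than 50 kb. Of the 2809, 1465 (52.2%, 50.3 to 54.0%) exceeded 289 bp, the median of the whole list. The share was 42.9% (39.4 to 46.5%) at gene ends, an odds ratio of 1.45 with an adjusted p of 3.82e-05 (two-sided Fisher's exact test, Benjamini-Hochberg over 6 tests). Inside genes it was 48.4% (46.9 to 49.9%), an odds ratio of 1.16 with an adjusted p of 0.00551 in the same test. That last difference did not pass with regions above the upper quartile of the list's widths (odds ratio 1.09). Further than 50 kb the share was 52.8% (50.7 to 54.9%), and the odds ratio of 0.974 did not pass (adjusted p of 0.648, Fisher's exact test). Neighbouring regions are not independent and all come from 1 pooled list, so these tests compare positions within that list.

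**Figure D2:**
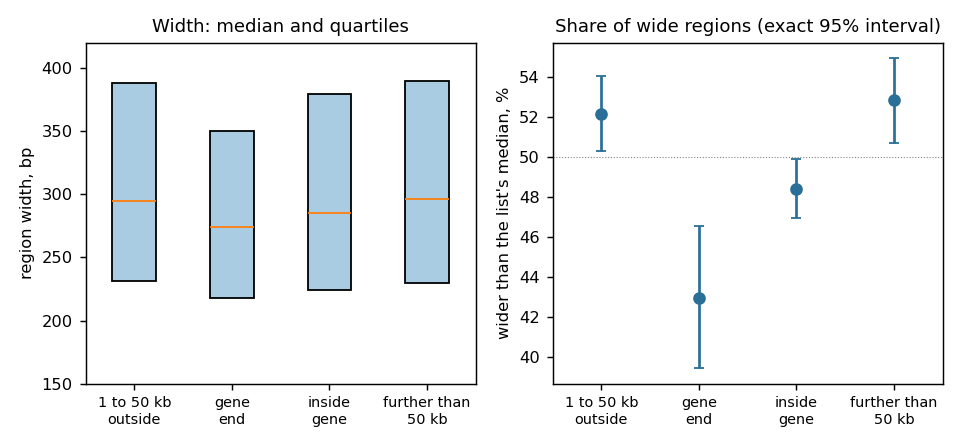
Left, region width in bp as median and quartiles for the 4 location classes; right, the percentage of each class wider than the list's median, with exact 95% intervals. The class 1 to 50 kb outside genes (52.2%) sits above gene ends (42.9%) and beside the class further than 50 kb (52.8%).

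A few regions were far wider than the rest. Widths over 500 bp were found in 250 of the 2809 (8.90%), and 101 (3.596%) had the smallest width of the list, 183 bp. The widest, 985 bp with 3 summits, lay 36.9 kb upstream of Slc2a1, the glucose transporter GLUT1. A region of 889 bp lay 1.64 kb upstream of Mycn, a proto-oncogene of the Myc family. Other wide regions lay near D630039A03Rik (883 bp), Dlgap1 (851 bp), which encodes a postsynaptic scaffold protein, and Tmem200a (832 bp). Further ones among the widest 10 lay near Cadps (831 bp), which primes vesicles for release, Dmrtb1 (829 bp), a DM-domain factor of the germ line, Mmp17 (824 bp), a membrane-bound metalloproteinase, and Ppp1r12a (819 bp), a subunit of myosin phosphatase.

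Most flanking genes had a single region, and a few had clusters. The nearest gene of a region was 1 of 2257 genes, of which 1820 had 1 region, 437 had 2 or more and 13 had 4 or more. Sall1 had the most, with 7. It encodes a zinc finger repressor that is active in embryonic stem cells. On chromosome 8, 5 of the 7 lay downstream, at 11.3, 20.6, 23.5, 34.9 and 35.3 kb, and 2 upstream, at 1.35 and 7.59 kb. Their widths ran from 183 to 572 bp, the widest being the one 23.5 kb downstream (89003426 to 89003997). No region lay inside Sall1 or at its ends.

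Dynlt1b, a dynein light chain gene on chromosome 17, followed with 6 regions of 209 to 436 bp, on both sides and 4.91 to 43.3 kb away. Dynlt1a, Dynlt1c and Dynlt1f are close copies of it in the same stretch. Gm29719, a transcribed pseudogene before Dynlt1b (6356813 to 6426942), held the midpoints of 4 regions, each nearest to Dynlt1b or Dynlt1a. How reads were placed among such copies is not given in the sources used here, so these positions are uncertain.

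Tgif1 and Nrf1 had 5 regions each. Tgif1 encodes a homeodomain repressor of TGF-beta signalling, and all of its 5 lay upstream, 11.4 to 47.3 kb away on chromosome 17, with 3 of them at 11.4, 11.9 and 13.2 kb. The 851 bp region nearest to Dlgap1 lay on the other side of Tgif1, 15.6 kb downstream. Nrf1 encodes a transcription factor for genes of mitochondrial respiration. Its 5 regions all lay downstream, 6.27 to 21.3 kb away on chromosome 6, at widths of 183 to 358 bp, and 4 of them were inside the lncRNA gene Mirc35hg. That gene is the host of 3 microRNAs, Mir182, Mir96 and Mir183, whose hairpins lay 1.34, 1.42 and 1.48 kb from the nearest region, and all 5 regions were within 10 kb of each.

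Nlrp12, an innate immune receptor gene on chromosome 7, had 4 regions downstream at 4.92 to 17.3 kb, and the Mir290 cluster lies at that end of the Nlrp12 span. Hairpins of the cluster, a main source of microRNAs in embryonic stem cells, lay 4.70 kb (Mir290a) to 6.85 kb (Mir295) from the nearest region, with 2 regions within 10 kb. Mature sequences from RefSeq (GRCm38.p6) are given for the microRNAs beside the Nrf1 and Nlrp12 regions, with the seed (bases 2 to 8) in capitals. The pair from the Mir290 cluster share the seed AAGUGCU, while the 3 from Mirc35hg have seeds that differ.
miR-182-5p: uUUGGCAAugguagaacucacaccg
miR-96-5p: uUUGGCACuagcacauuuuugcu
miR-183-5p: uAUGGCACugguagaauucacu
miR-294-3p: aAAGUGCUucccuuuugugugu
miR-295-3p: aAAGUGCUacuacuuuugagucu

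In all, 35 of 1005 microRNA hairpins lay within 10 kb of a region. The nearest regions of these hairpins were 23 distinct ones, and further regions within 10 kb are not in that count. Those of Mir200b, Mir200a and Mir429, whose products act on epithelial state, lay 8.23, 8.995 and 9.99 kb from the Gm52714 region whose sequence is shown above.

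Each of the other 7 genes described here had 4 regions, as did Id4, and of these ties the genes with the largest summed width were taken. Downstream of Ccr1, a chemokine receptor gene, 4 regions lay at 26.4 to 33.3 kb on chromosome 9, with widths of 799, 271, 204 and 558 bp. Upstream of Atf7ip, whose protein is a cofactor of the histone methyltransferase SETDB1, 4 lay at 18.9 to 48.2 kb, with widths of 187 to 521 bp. Gm46608 had its 4 upstream at 8.88 to 33.2 kb. Regions lay on both sides of Ythdc1, a nuclear reader of N6-methyladenosine in RNA, Grik3, a kainate receptor subunit, Agpat3, a phospholipid acyltransferase, and Col13a1, a transmembrane collagen. Ythdc1 had 1 upstream at 16.99 kb and the rest downstream, Grik3 had 2 upstream at 1.27 and 4.60 kb and 2 downstream, Agpat3 had 1 downstream at 9.19 kb and the rest upstream, and Col13a1 had 1 downstream at 9.13 kb.

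**Figure D3:**
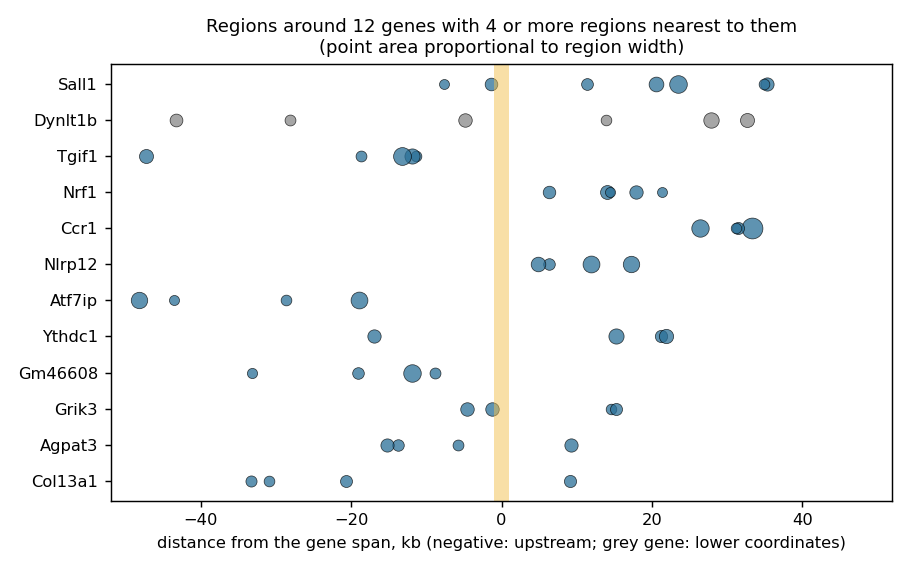
Regions around 12 of the 13 genes with 4 or more regions nearest to them (Id4, with 4 of small summed width, is not drawn). The horizontal axis is the distance in kb from the gene span, negative for upstream and, for the gene drawn in grey whose strand was not used, for lower coordinates; point area is proportional to region width. All points of Tgif1, Atf7ip and Gm46608 lie upstream and all of Nrf1, Ccr1 and Nlrp12 downstream, while the other 6 genes have points on both sides.

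The strand of the nearest gene was known for 2164 of the 2809 regions (77.0%), so upstream and downstream were given for named genes only and not compared over all regions.

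The regions were also counted by the gap between neighbouring genes. The regions fell in 2180 such gaps, of which 1720 held 1 and 460 held 2 or more. The gap between E330021D16Rik and Atf7ip held 6 in 98.9 kb, and that between Pirt, a membrane regulator of ion channels in sensory neurons, and Tmem220 held 6 in 95.3 kb. In the gap between Nudt4, a diphosphoinositol phosphatase, and Eea1, an early endosome tether, 5 regions lay in 377 kb, and in the gap between Cd83, a surface glycoprotein of dendritic cells, and Jarid2 5 lay in 928 kb. These 2 wide gaps held 8 and 16 asynchronous regions in all, since most of their length is further than 50 kb from a gene. The median distance from a region to the next asynchronous region was 42.2 kb, against 47.8 kb at gene ends, 48.3 kb inside genes and 73.2 kb further out, and 375 regions (13.3%) had another within 5 kb. Both flanking genes were within 50 kb of 1240 regions (44.1%).

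Most genes listed for the pluripotency network were flanked by such regions. A gene was counted when it was the nearest or a flanking gene of a region 1 to 50 kb outside it. Of 40 genes listed for pluripotency, 27 (67.5%, 50.9 to 81.4%) had at least 1, with a median of 1, against 3150 of 21887 protein-coding genes (14.4%), with a median of 0. The outside space searched was wider for the list, with a median of 64.6 kb per gene against 37.8 kb. Per Mb of that space the list had 21.7 regions and all genes had 4.39. The lists were drawn up with earlier results of these data known, so their counts are descriptions.

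Within that list Sall1 had 7 regions and Pou5f1, which encodes the POU factor OCT4, had 4. All 4 lay upstream, and Pou5f1 was the nearest gene of 3, at 1.96 kb (679 bp), 3.21 kb (441 bp) and 15.4 kb (294 bp). Jarid2, a cofactor of Polycomb repressive complex 2, had 3 upstream at 2.08, 8.41 and 25.2 kb, and these were wide, at 500, 533 and 673 bp. Mycn had 3, of which the 889 bp region lay 1.64 kb upstream and the others, of 368 and 353 bp, 45.6 kb upstream and 8.76 kb downstream. Klf5, a zinc finger factor of the naive state, had 3 at 11.4, 26.6 and 40.8 kb, with the middle one 779 bp wide, and Prdm14, which represses differentiation genes, had 3 of 192 to 432 bp at 9.26 to 38.7 kb. Members singled out after their values were seen were Sox2, with 2 regions downstream at 1.62 kb (563 bp) and 16.1 kb (314 bp), Nanog, a homeodomain factor, with 1 at 4.64 kb upstream (585 bp), and Klf4, with 1 at 49.6 kb downstream (416 bp). The 13 listed genes with no such region were Nr0b1, Nr5a2, Dppa2, Dppa4, Tdgf1, Lin28a, Trim28, Tet2, Fbxo15, Stat3, Trp53, Nacc1 and Zscan10. Of these, Nr0b1, Nr5a2, Lin28a, Tet2, Fbxo15, Trp53 and Zscan10 had at least 1 asynchronous region inside them or at their ends.

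Genes of signalling pathways came next, with 22 of 37 (59.5%, 42.1 to 75.2%) and 14.5 regions per Mb of outside space. Spry2, a feedback inhibitor of receptor tyrosine kinases, had 3, 1 upstream at 24.1 kb (649 bp) and 2 downstream at 30.7 and 40.4 kb (269 and 247 bp). Socs3, which limits signalling downstream of LIF and STAT3, had 3 at 5.24 kb upstream (487 bp) and at 24.1 and 26.2 kb downstream (285 and 197 bp). Id2, an inhibitor of bHLH factors, had 3 within 2.87 to 28.7 kb. Lefty1, a secreted antagonist of Nodal, had 2 at 1.16 kb (507 bp) and 10.1 kb (570 bp).

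The formative and primed list, with genes that rise as cells leave the naive state, had 8 of 19 (42.1%, 20.3 to 66.5%) and 12.1 per Mb. Foxd3, a forkhead repressor, had 3 at 11.7 to 19.99 kb, Zic5, a zinc finger factor, 3 at 2.47 to 42.6 kb, Epha2, an ephrin receptor, 3 at 9.73 to 30.8 kb, all upstream, and Otx2, a homeodomain factor of the epiblast, 2 at 2.02 and 33.5 kb.

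In the lists of lineage genes the share ran from 30.4 to 38.9%, against 14.4% of all genes. Per Mb of outside space they had 6.51 regions (neuroectoderm), 9.38 (trophectoderm) and 5.63 (mesendoderm), against 4.39 for all genes, and the median space was 86.5, 70.2 and 63.0 kb per gene against 37.8 kb. Neuroectoderm genes had a region in 10 of 28 cases (35.7%, 18.6 to 55.9%), led by the proneural factor Neurog1 with 3, all downstream at 13.99 to 34.3 kb. Pou3f3, a POU factor of the brain, and Six3, a homeobox factor of the forebrain, had 2 each, and Rax, a homeobox gene of the eye field, had 1. Six3 was a flanking gene of its regions but the nearest gene of neither. Trophectoderm genes had 7 of 18 (38.9%, 17.3 to 64.3%), and 4 of 18 (22.2%) when only the nearest gene of a region was counted. Tfap2c, an AP-2 factor, had 4 at 18.9 to 46.7 kb, Tead4, the DNA-binding partner of YAP, had 1 at 39.8 kb, and Gata3 had 1 at 9.27 kb. Mesendoderm genes had 7 of 23 (30.4%, 13.2 to 52.9%), with Gsc, an organiser homeobox gene, at 2 and T (Brachyury), Foxa2 and Pdgfra at 1 each.

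Among lists of general cell functions, cytoskeleton and adhesion had 9 of 22 (40.9%, 20.7 to 63.6%), metabolite transport 6 of 20 (30%, 11.9 to 54.3%), chromatin 9 of 31 (29.0%, 14.2 to 48.0%) and mitosis and cell cycle 6 of 26 (23.1%, 8.97 to 43.6%). In that order they had 10.99, 9.15, 11.3 and 6.13 regions per Mb of outside space. Lamc1, a laminin chain of the basement membrane, had 4 regions at 2.29 to 43.9 kb, and Actb, cytoplasmic actin, 2 at 16.6 and 49.3 kb. Slc2a1 and Hk2, the glucose transporter and the hexokinase that acts after it, had 2 each, as did Pdk1, which restrains pyruvate oxidation, and Slc38a2, a transporter of neutral amino acids. Eed, a core subunit of Polycomb repressive complex 2, had 3, all upstream at 16.8 to 44.1 kb. No mitosis gene had more than 1, and those with 1 included Mybl2 at 2.39 kb, Cdkn1a at 9.94 kb, Ccnd3 at 1.11 kb and Bub1b at 10.3 kb.

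The exact interval held the 14.4% of all genes for 7 of the 13 lists, namely mesendoderm, metabolite transport, chromatin, mitosis and cell cycle, and the 3 that follow. It lay above that share for the other 6. Ribosomal protein genes had 3 of 24 (12.5%, 2.66 to 32.4%, 4.93 per Mb), Rpl11, Rpl37 and Rps19, in a median outside space of 17.4 kb. Olfactory receptor and keratin genes had 4 of 19 (21.1%, 6.05 to 45.6%, 4.71 per Mb), all 4 of them olfactory receptors. Liver genes had 1 of 21 (4.76%, 0.120 to 23.8%, 0.986 per Mb), Apoh, a plasma apolipoprotein, which was not the nearest gene of its region. Intervals of the smaller lists overlapped widely, and the lists share some members, such as Id2 and Jarid2.

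**Figure D4:**
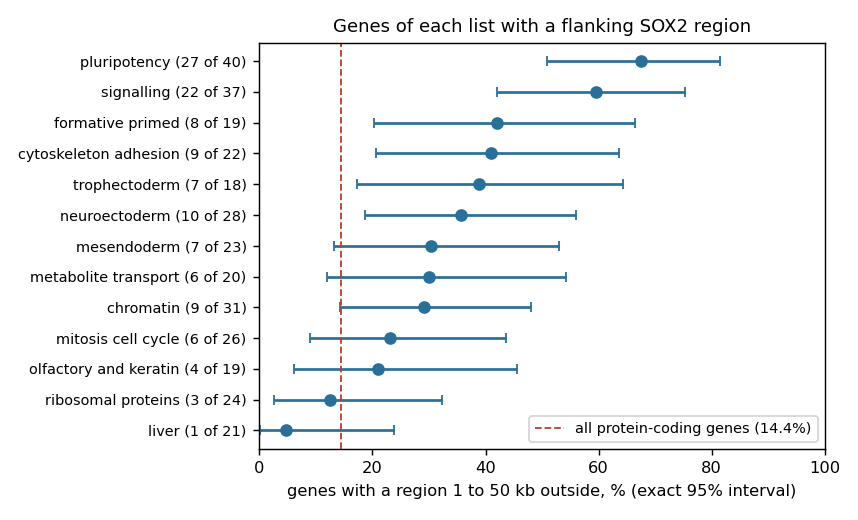
Percentage of each list's genes with a SOX2 region 1 to 50 kb outside them (points, with exact 95% intervals and the count of how many). The dashed line is the share of all protein-coding genes, 14.4%; the pluripotency (67.5%) and signalling (59.5%) lists lie farthest above it.

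Regions also lay in non-coding genes. Gm26564, Gm29719 and Mirc35hg held 4 each, and 5031425E22Rik, A330033J07Rik and Gm10069 held 3 each. Gm26564, on chromosome 10, lies among the flanks of Dse and Tspyl1, and its regions were 22.1 to 34.5 kb from those genes. A330033J07Rik, on chromosome 13, held 3 regions nearest to Id4, which encodes an inhibitor of bHLH factors, at 8.38 to 33.2 kb.

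The mitotic list, called at the looser q-value tag, held 84 regions, and 18 of them (21.4%, 13.2 to 31.7%) lay 1 to 50 kb outside genes by the same rule. Their widths ran from 105 to 192 bp, with 4 at 105 bp and a median of 121.5 bp. The smallest width was 183 bp in the asynchronous list and 105 bp in the mitotic one, and no width was compared between the 2 lists. Their median distance to the nearest gene was 14.2 kb, and to the nearest asynchronous region 33.3 kb. For 11 of the 18 the nearest asynchronous region was also 1 to 50 kb outside a gene. An asynchronous region was within 50 kb of 11 of the 18.

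Of the 18, 2 overlapped an asynchronous region, both wholly inside it. Of the other mitotic regions, 2 of 4 at gene ends, 3 of 51 inside genes and 2 of 11 further out overlapped one. The mitotic region near Zfp990, a zinc finger gene on chromosome 4, was 114 bp wide inside a region of 248 bp (145546576 to 145546823). That near Izumo2, a gene of the sperm IZUMO family on chromosome 7, was 119 bp wide inside one of 214 bp (44723443 to 44723656). Both were narrower than the median of 295 bp. Asynchronous regions closest to a mitotic one without overlap were near Rsph3b, which is tied to radial spokes of cilia, at 2.62 kb, near Sall1 at 3.52, 5.27 and 8.14 kb, near the water channel gene Aqp1 at 4.65 kb, near Cdk2ap1, which encodes an inhibitor of CDK2, at 5.37 kb, near the serpin gene Serpina3g at 9.11 kb and near Mindy4, a deubiquitinase gene, at 12.02 kb. The mitotic region at Sall1 (115 bp, 15.1 kb downstream of the gene) lay between the regions at 11.3 and 20.6 kb without touching either. Zfp990 is followed on chromosome 4 by further zinc finger genes, among them Zfp992, Zfp978 and Zfp982, and Rsph3b lies beyond the Dynlt1 copies on chromosome 17. How reads were placed among related genes is not given in the sources used here, so the positions near Zfp990 and Rsph3b may be uncertain too.

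The other mitotic regions of the class were near Etaa1 (7.59 kb from an asynchronous region), Bglap2 (13.9 kb), Arl5b (17.2 kb), Eefsec (18.9 kb), Grhl2 (30.3 kb), Nyap1 (36.2 kb) and Raet1d (40.8 kb). Further apart were those near Zfp640 (68.3 kb), Cela3a (88.7 kb), Eef1e1 (91.4 kb), H3f3a (95.4 kb), Olfr31 (226 kb), Gm21671 (286 kb) and Dhx15 (434 kb). Of the genes nearest to the 18 mitotic regions, only Sall1 is in the pluripotency list, which holds 40 of 21887 protein-coding genes. Grhl2 is in the formative and primed list.

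**Figure D5:**
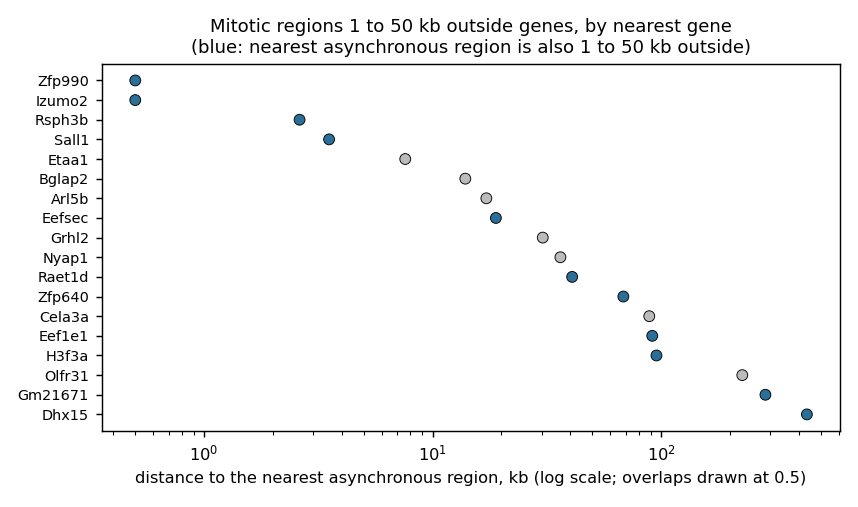
Distance in kb (log scale) from each of the 18 mitotic regions 1 to 50 kb outside genes to the nearest asynchronous region, named by nearest gene; overlaps are drawn at 0.5. Blue points have a nearest asynchronous region of the same class; Zfp990 and Izumo2 overlap, and Dhx15 is the farthest at 434 kb.

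Seen from the asynchronous side, 26 of the 2809 regions (0.926%, 0.605 to 1.35%) had a mitotic region within 50 kb, and these 26 shared 16 mitotic regions. The 7 regions nearest to Sall1 were among them and shared 1. By distance from the gene, 8 of the 26 lay at 1 to 5 kb, 8 at 5 to 10 kb, 4 at 10 to 20 kb and 6 at 20 to 50 kb. The share was 1.29% at gene ends (0.622 to 2.37%), 0.786% inside genes (0.551 to 1.09%) and 0.548% further than 50 kb (0.284 to 0.956%). The odds ratios of 0.713, 1.18 and 1.69 against these classes did not pass (adjusted p of 0.618, 0.618 and 0.283, two-sided Fisher's exact test, over 6 tests). Without the Sall1 regions the odds ratio against gene interiors fell to 0.862. Overlaps were found for 2 of the 2809 (0.0712%, 0.00862 to 0.257%). They were found for 2 of 773 at gene ends (0.259%), 3 of 4580 inside genes (0.0655%) and 2 of 2189 further than 50 kb (0.0914%).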

How the data were processed

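Per the submitters' processing notes, Bowtie2 2.2.1, MACS2 (version not given in the sources used here) and the build mm10 were used. Per the deposited names, peaks were called by the authors once per condition on the 3 pooled replicates against input, with a q-value tag read as 0.01 for asynchronous and 0.05 for mitotic cells, and blacklisted regions were removed. What was deposited are genome positions in bp and peak names, so depth and replicate spread are unknown.

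Starts were converted to count from 1. Merging asynchronous entries with the same coordinates took away 181 of 10532. Gene spans, start windows and microRNAs came from RefSeq tables of GRCm38.p6 with 21887 protein-coding genes on 21 chromosomes. Genome sequence was not used here, and strand came from the start windows. Distances run from the region's midpoint to the gene span, and from edge to edge between regions. The members and the gene lists were chosen with earlier results of these data known. Of 324 distinct listed genes 322 were matched, and the unmatched were Tf and Olfr151.

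Classes were compared by Fisher's exact test (two-sided), with 6 p-values adjusted after Benjamini and Hochberg and a threshold of 0.05, with exact (Clopper-Pearson) 95% intervals. Overlap meant at least 1 bp. Named genes were the 12 nearest genes with most regions (ties by summed width), the nearest genes of the 10 widest regions, of those overlapping a mitotic region and of the 8 next nearest, up to 4 per list, the flanks of the 5 fullest gaps, up to 6 non-coding genes, and the nearest genes of the mitotic regions of the class. Some genes that this rule selects are left out of the text. Further listed genes, those of the start windows and microRNAs, and those at the distance limits were named after their values were seen. Alternatives changed the distance limits, the gene set, the width measure and the mitotic distance. Scripts ran on Python 3.11.15 with numpy 2.4.6, pandas 2.3.3 and scipy 1.17.1, and were tested on simulated data.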

Additional observations from a re-analysis of the deposited data

How the results depend on the processing

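Of 70 alternative values for 24 results, 54 kept their direction and their side of the threshold or, for values with no test, stayed within the exact interval or within 1.5 times of a count. Some of these still changed in size. The number of regions was 1831 with an upper limit of 20 kb and 1465 with only regions wider than the list's median. With the upper quartile of widths as the limit, the odds ratio against gene interiors was 1.09 (adjusted p of 0.287, Fisher's exact test), and the cause was not tested. The regions with a mitotic region nearby numbered 9 within 10 kb, 12 within 20 kb, 2 with any overlap and 2 with at least 50% of the mitotic region covered, all of which follow from the shorter distance. The odds ratio of that share against the class further than 50 kb turned to 0.935 within 20 kb and to 0.779 with either overlap, and against gene ends it was 0.275 with an overlap. Against gene interiors it turned to 0.862 without the regions nearest to Sall1, an alternative chosen after seeing the data, as was the use of autosomes only. None of these odds ratios passed the threshold in either direction. Genes with a region numbered 1997 within 20 kb, against 3150, or 9.12% of protein-coding genes, and 10.3% with the nearest gene only. With 20 kb the neuroectoderm share was 17.9%, and with the nearest gene only no liver gene was counted and the shares were 22.2% (trophectoderm), 4.17% (ribosomal proteins) and 10.5% (olfactory receptors and keratins). No paired analysis was possible because each condition has 1 list called on pooled replicates, and for the same reason no replicate could be left out. Depth is unknown, so a gene without a listed region is not shown to lack SOX2, and width does not give binding strength.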

Other observations

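The X chromosome had few asynchronous regions of any kind, and a large part of them lay 1 to 50 kb outside genes. It held 73 regions 1 to 50 kb outside protein-coding genes of 173 asynchronous regions (42.2%, exact 95% interval 34.7 to 49.9%), against 2735 of 10176 on the autosomes (26.9%). The genome at that distance came to 45.4 Mb on the X, against 15.2 Mb (chromosome 19) to 46.1 Mb (chromosome 7) on single autosomes. Per Mb of it the X had 1.61, against 4.98 over the autosomes. Single autosomes had 283 to 816 asynchronous regions of any kind, and ran from 3.18 per Mb on chromosome 14 to 6.42 on chromosome 17. These densities were not corrected for the number of chromosome copies in the cells, and the part of copy number in them was not tested.

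The X-linked regions included 1 of 686 bp at 3.08 kb upstream of Hs6st2, a heparan sulfate sulfotransferase gene, and 1 of 530 bp at 4.11 kb upstream of Rbbp7, a histone-binding subunit of several chromatin complexes. A region of 638 bp (103472209 to 103472846) lay in the overlapping spans of the non-coding genes Xist and Tsix, the pair that sets X inactivation, and its nearest protein-coding gene was Tsx at 47.9 kb.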
